A study of Mus musculus with 12 samples.

Results

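DNA methylation in mammals is written, copied and removed by a small set of enzymes, and the RNA of 9 of their genes was followed here in mouse cells before and after a switch from the embryonic stem (ES) cell state to an extraembryonic endoderm-like (XEN-like) state. The genes were Dnmt1, Uhrf1, Dnmt3a, Dnmt3b, Dnmt3l, Tet1, Tet2, Tet3 and Tdg, and every array probe carrying one of these names was read, which gave 20 of the 55681 probes. A probe was tested if some group had it well above background on each of its 3 arrays, which held for 18 of these 20 and for 25950 probes in all. The 2 that did not pass are both Tet3 probes.

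The 12 arrays compared 4 groups of 3, all of cells that carry Gata6GR, a fusion of the endoderm factor Gata6 to the ligand-binding domain of the human glucocorticoid receptor, expressed from the CAG promoter of a piggyBac vector. Dexamethasone (Dex) activates the fusion. The groups were Sox7 (+/-) ES and Sox7 (-/-) ES, without Dex, and Sox7 (+/-) XEN-like and Sox7 (-/-) XEN-like, after Dex, all collected at day 4 in medium with LIF. The lines descend from EB3 ES cells, in which one or both copies of the coding region of Sox7, a Sox factor of the same endoderm, were replaced by a PGK-driven puromycin selection cassette. Each genotype is 1 clone, and the Sox7 (-/-) clone came from the heterozygous lineage by high-dose puromycin selection. No group with Dex but without Gata6GR was compared, so effects of Dex on other targets and of Gata6GR cannot be told apart, and neither can a clone and its genotype. The labels do not say whether the arrays of a group came from separate cultures, and the source labels of all 3 Sox7 (+/-) ES arrays, the group with the smallest spread, carry the same replicate number. So p-values measure the spread between these arrays, which may be technical.

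A methyl group is placed on the cytosine of CG dinucleotides. Dnmt3a and Dnmt3b place new methyl groups, and Dnmt3l, which has no catalytic activity of its own, binds and stimulates them. After replication, Uhrf1 recognises the hemimethylated daughter DNA and brings in Dnmt1, which copies the mark to the new strand. Tet1, Tet2 and Tet3 oxidise methylcytosine, and Tdg, a DNA glycosylase, excises the more oxidised products so that base excision repair can restore an unmodified cytosine. ES cells are known for high levels of Dnmt3b, Dnmt3l, Tet1 and Tet2, and the extraembryonic lineages of the mouse for low DNA methylation. The arrays measured RNA and not methylation.

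The promoters of these genes differ widely in the dinucleotide that the enzymes act on, and those of the 3 genes with the largest Dex responses are shown for that reason. All 9 genes had at least 1 window in the RefSeq promoter table (build GRCm38.p6), 16 windows in all, and the 250 bases before each start were read. In the lines that follow, CG dinucleotides are in capitals, and each sequence runs 5′ to 3′ on the strand of the gene.
Tet1, chr10:62887325-62887574, minus strand: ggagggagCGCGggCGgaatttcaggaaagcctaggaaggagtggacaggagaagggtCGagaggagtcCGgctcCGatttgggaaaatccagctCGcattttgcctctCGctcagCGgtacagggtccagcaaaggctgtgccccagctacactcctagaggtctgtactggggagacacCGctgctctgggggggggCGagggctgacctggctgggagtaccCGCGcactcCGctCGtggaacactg
Tet2, chr3:133544391-133544640, minus strand: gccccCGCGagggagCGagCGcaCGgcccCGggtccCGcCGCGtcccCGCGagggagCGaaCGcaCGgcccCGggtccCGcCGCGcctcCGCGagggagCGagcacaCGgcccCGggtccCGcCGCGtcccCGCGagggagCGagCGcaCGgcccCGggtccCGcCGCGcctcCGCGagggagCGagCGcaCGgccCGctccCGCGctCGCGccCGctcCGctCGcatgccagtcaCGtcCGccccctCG
Dnmt3l, chr10:78042037-78042286, plus strand: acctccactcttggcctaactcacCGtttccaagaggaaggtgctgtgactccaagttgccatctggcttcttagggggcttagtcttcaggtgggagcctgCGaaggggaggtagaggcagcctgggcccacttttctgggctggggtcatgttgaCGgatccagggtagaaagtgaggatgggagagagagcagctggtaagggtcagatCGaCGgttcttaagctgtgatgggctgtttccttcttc
The Tet2 window held 51 CG dinucleotides, more than 99.9% of the 32851 windows of the table. The Tet1 window held 15 and the Dnmt3l window 5, which is the highest of the 3 Dnmt3l windows, against a median of 6 over all windows. The Tet2 window is thus far richer in CG than most, and the Dnmt3l window lies near the median. The Dnmt3b window held 21, the Tet3 window 17 and the Tdg window 19.

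Both maintenance genes, Dnmt1 and Uhrf1, held a match to an E2F motif in 1 window each, of 3 windows for Dnmt1 and 2 for Uhrf1. Through sites of this kind, genes of DNA replication are switched on in cycling cells. The 30 bases around each match are shown with the motif in capitals.
Dnmt1, chr9:20952824-20952853, minus strand: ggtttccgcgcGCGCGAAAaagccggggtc
Uhrf1, chr17:56304117-56304146, plus strand: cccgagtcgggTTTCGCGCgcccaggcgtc
The motif was searched as TTTCGCGC or TTTGGCGC on both strands, and 0.654% of all windows held it. The matching windows of Dnmt1 and Uhrf1 held 26 and 30 CG dinucleotides against a median of 6 over all windows, and the motif itself contains CG. The share among windows as rich in CG was not computed. None of the other 7 genes held the motif. A GATA motif (the letters GATA after A or T and before A or G, on both strands) was found in 26.5% of all windows and, among the 16 windows of these genes, in 1 window of Dnmt1. A glucocorticoid response element was in none of the 16 and in 0.00913% of all windows. These are matches of letters in a short window, not binding sites.

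The signal of an array is given relative to its own 75th percentile, which lay between 252.3 and 415.9 intensity units, and between 41.7% and 52.3% of the spots of an array were well above background. Replicate arrays correlated at 0.982 to 0.996 over tested probes. The Sox7 (+/-) XEN-like arrays were the most variable group, with a median SD of 0.197 on the log2 scale, against 0.0873 to 0.108 in the other groups. Of 2 slides, one carried 4 arrays, namely replicate 1 of the Sox7 (-/-) XEN-like group beside all Sox7 (-/-) ES arrays, and the other carried the remaining 8. The Sox7 probe read 2.18 to 2.29 times the 75th percentile in Sox7 (+/-) ES cells and 4.90 to 6.88 in Sox7 (+/-) XEN-like cells, and was not well above background on any of the 6 Sox7 (-/-) arrays. Of 8 ES cell markers, 6 fell with Dex in Sox7 (+/-) cells and 7 in Sox7 (-/-) cells, while 7 and 8 of 9 extraembryonic endoderm markers rose. The Nanog and Sox2 probes were not well above background on any XEN-like array, but 6 of the 8 ES cell markers still were on each. The median log2 change of the 8 was -4.895 in Sox7 (+/-) cells and -4.653 in Sox7 (-/-) cells. Their summed signal, in which the brightest genes weigh most, was 780 to 797 before Dex and 529 to 694 after it in Sox7 (+/-) cells. In Sox7 (-/-) cells it was 1052 to 1173 and then 553 to 592. The 9 endoderm markers were well above background on every ES array too, with a summed signal of 424 to 595 before Dex and 1650 to 1966 after it.

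Dex lowered the RNA of a subset of these enzymes and left the rest within 2-fold, as the plot of each gene on each array shows. Dnmt3l, Tet1 and Tet2 fell 5.40 to 6.97-fold in Sox7 (+/-) cells and 5.89 to 7.27-fold in Sox7 (-/-) cells. Dnmt3b and Uhrf1 fell less, 1.86-fold and 1.80-fold in Sox7 (+/-) cells and 2.71-fold and 2.48-fold in Sox7 (-/-) cells. Dnmt1, Dnmt3a, Tet3 and Tdg did not reach 2-fold in either genotype. A probe was called when its change was over 2-fold with an adjusted p under 0.05 (limma, Benjamini-Hochberg over all tested probes). By the brightest probe of each gene, 3 of the 9 genes were called lower and 0 higher in Sox7 (+/-) cells, where 14% of all tested probes were called lower and 11% higher, and 5 of 9 lower and 0 higher in Sox7 (-/-) cells, against 14.2% lower and 14.6% higher (24.9% and 28.8% in either direction). At any size of change, 5 of 9 genes had an adjusted p under 0.05 in Sox7 (+/-) cells, all of them lower, where 62.7% of all tested probes did (25.2% lower and 37.5% higher). The same held for 7 of 9 genes in Sox7 (-/-) cells, 6 lower and 1 higher, where 65.3% of all probes did (31.3% lower and 34% higher). ES and XEN-like arrays did not overlap for 6 and 8 of 9 genes, and for 67.6% and 73.6% of all probes. Over all their tested probes, 10 of 18 were called lower in Sox7 (+/-) cells and 12 of 18 in Sox7 (-/-) cells. Both counts include a dim Tet2 probe, at position 668, that was not well above background on any XEN-like array. That probe was tested through ES arrays alone, so a fall was the likely call. The median log2 change of the 9 genes was -0.85 and -1.31, and that of all tested probes 0.16 and 0.07. In whole cultures, fewer cells of one type and less RNA per cell cannot be told apart. The part of the change of cell state, as the markers above show it, in these values was not tested.

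**Figure D1:**
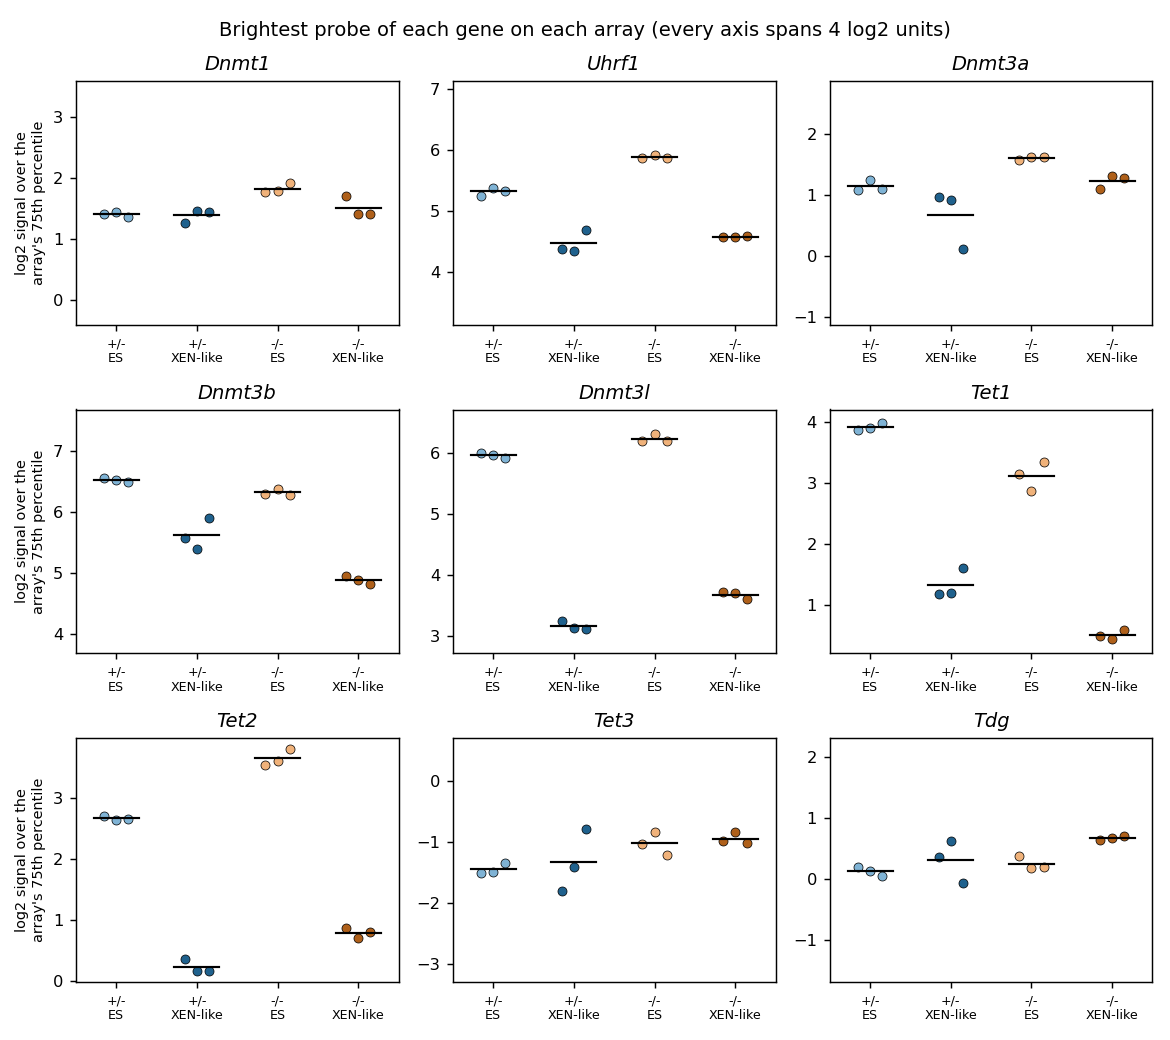
Signal of the brightest probe of each gene on each of the 12 arrays, as log2 of the signal over the array's 75th percentile. Points are arrays, 3 per group, and bars are group means. In Dnmt3l, Tet1 and Tet2 all 6 XEN-like arrays lie below all 6 ES arrays, while for Tet3 the ES and XEN-like arrays overlap within each genotype.

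Among the maintenance genes, Dnmt1 changed least. Its 1 probe, from position 4984 of the transcript (mm9, chr9:20711973-20712341, minus strand), read 2.65, 2.70 and 2.57 times the 75th percentile on the Sox7 (+/-) ES arrays and 2.39, 2.73 and 2.72 on the Sox7 (+/-) XEN-like arrays. These groups overlap, and the log2 difference was -0.02 (SE 0.09, adjusted p = 0.890). In Sox7 (-/-) cells Dnmt1 read 3.39, 3.45 and 3.78 before Dex and 3.24, 2.66 and 2.66 after it. The groups do not overlap, and the log2 difference of -0.32 (SE 0.09) had an adjusted p of 0.0133. The XEN-like array with 3.24 is the one that shares a slide with the ES arrays, and within that slide the difference was -0.13. With the slide in the fit the adjusted p was 0.364.

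Uhrf1, which escorts Dnmt1 to the replication fork, did fall. Its brighter probe (position 3430, chr17:56462770-56462829, plus strand) read 38.1, 41.7 and 40.2 on the Sox7 (+/-) ES arrays and 20.8, 20.3 and 25.7 on the Sox7 (+/-) XEN-like arrays, every XEN-like array being below every ES array. The log2 difference was -0.85 (SE 0.09, adjusted p = 1.48e-05), which is short of 2-fold. In Sox7 (-/-) cells the probe read 58.3, 60.5 and 58.8 before Dex and 23.8, 23.8 and 24.1 after it, a log2 difference of -1.31 (SE 0.09, adjusted p = 4.48e-07). By this probe the XEN-like levels were close in the genotypes and the starting levels were not. The dimmer probe, at position 985, started from like levels, 0.886 ± 0.104 and 0.887 ± 0.0852 (SD, n = 3). It fell by 1.08 on the log2 scale in Sox7 (+/-) cells and by 1.25 in Sox7 (-/-) cells and was called in both.

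Of the de novo genes, Dnmt3l fell most and Dnmt3a least. The Dnmt3l probe (position 1420, chr10:77526112-77526171, plus strand) read 64.5, 63.0 and 60.5 on the Sox7 (+/-) ES arrays and 9.53, 8.79 and 8.68 on the Sox7 (+/-) XEN-like arrays. It read 73.2, 79.7 and 73.6 on the Sox7 (-/-) ES arrays and 13.2, 13.1 and 12.2 on the Sox7 (-/-) XEN-like arrays. The ES and XEN-like arrays are far apart in both genotypes, and Dnmt3l nonetheless remained well above background on all 12 arrays. The log2 differences were -2.80 (SE 0.07, adjusted p = 4.61e-10) and -2.56 (SE 0.07, adjusted p = 5.26e-10).

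Dnmt3b was measured by 3 probes. The brightest (position 4260, chr2:153513403-153513462, plus strand) read 93.6, 91.5 and 89.9 on the Sox7 (+/-) ES arrays and 47.6, 41.9 and 59.8 on the Sox7 (+/-) XEN-like arrays, a log2 difference of -0.90 (SE 0.11, adjusted p = 5.79e-05). The other probes passed 2-fold, at -1.11 and -1.03, so whether Dnmt3b was called in Sox7 (+/-) cells depends on the probe. Without Sox7 (+/-) XEN-like replicate 3, the array with 59.8, the brightest probe reached -1.04 and was called too. The same probe read 78.3, 83.5 and 77.8 before Dex and 30.8, 29.6 and 28.04 after it in Sox7 (-/-) cells, with a log2 difference of -1.44 (SE 0.11, adjusted p = 1.32e-06), and the other probes fell by 1.51 and 1.55. RefSeq lists a Dnmt3b relative, Dnmt3b-ps1, also known as Dnmt3c, and whether these probes also bind its RNA was not tested.

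Dnmt3a, the other catalytic de novo enzyme, gave a smaller difference that depended on the scaling and on 1 array. Its probe (position 9611, chr12:3914320-3914379, plus strand) read 2.12, 2.37 and 2.15 on the Sox7 (+/-) ES arrays and 1.96, 1.89 and 1.08 on the Sox7 (+/-) XEN-like arrays. The log2 difference was -0.48 (SE 0.19, adjusted p = 0.0503). Replicate 3 of the XEN-like group supplied most of it, and without that array the difference was -0.20. Dnmt3a read 2.97, 3.095 and 3.096 and then 2.14, 2.49 and 2.42 in Sox7 (-/-) cells, a difference of -0.38 (SE 0.19, adjusted p = 0.105). The XEN-like arrays lie below the ES arrays in both genotypes, and under percentile scaling of all 12 arrays neither difference passed an adjusted p of 0.05. With spike-in scaling the difference in Sox7 (+/-) cells was -0.97 (adjusted p = 0.00897) and with the deposited table -0.88 (adjusted p = 8.67e-05). Without Sox7 (+/-) XEN-like replicate 3, which widens the spread shared by all groups, the difference in Sox7 (-/-) cells had an adjusted p of 0.00103 and that in Sox7 (+/-) cells 0.0521.

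**Figure D2:**
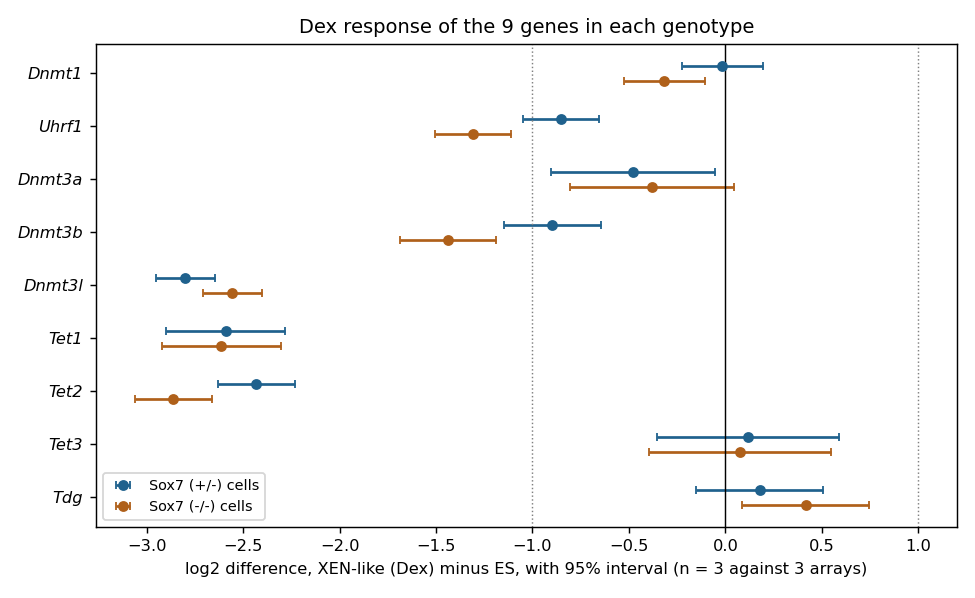
Log2 difference between XEN-like and ES cells for the brightest probe of each gene, with its 95% interval from the fit over all 12 arrays, in Sox7 (+/-) cells (blue) and Sox7 (-/-) cells (orange). Dotted lines mark 2-fold. Dnmt3l, Tet1 and Tet2 lie between -2.43 and -2.86, Uhrf1 and Dnmt3b between -0.85 and -1.44, and the intervals of Tet3 span 0 in both genotypes.

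The oxidising enzymes divided into a pair that fell and Tet3, which did not. The brightest of 3 Tet1 probes (position 6892, chr10:62274448-62274507, minus strand) read 14.5, 14.9 and 15.7 on the Sox7 (+/-) ES arrays and 2.24, 2.29 and 3.02 on the Sox7 (+/-) XEN-like arrays. In Sox7 (-/-) cells it read 8.82, 7.24 and 10.1 before Dex and 1.40, 1.35 and 1.49 after it. Tet1 was therefore lower after Dex on every array of either genotype, with log2 differences of -2.59 (SE 0.14, adjusted p = 9.29e-08) and -2.61 (SE 0.14, adjusted p = 6.77e-08). The other Tet1 probes fell by 2.67 and 2.54 in Sox7 (+/-) cells and by 2.48 and 2.19 in Sox7 (-/-) cells, so that all 3 probes were called in both.

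Tet2 also fell. Its brightest probe (position 9011, chr3:133126751-133126810, minus strand) read 6.51, 6.21 and 6.31 on the Sox7 (+/-) ES arrays and 1.29, 1.12 and 1.12 on the Sox7 (+/-) XEN-like arrays. In Sox7 (-/-) cells it read 11.6, 12.2 and 14.0 before Dex and 1.82, 1.62 and 1.74 after it. The log2 differences were -2.43 (SE 0.09, adjusted p = 6.24e-09) and -2.86 (SE 0.09, adjusted p = 1.54e-09). A second probe, at position 8857, fell by 2.64 and 3.14. The third Tet2 probe lies at position 668 of another transcript (chr3:133176421-133176479, minus strand) and was not well above background on any of the 6 XEN-like arrays, so that its fall is given as a bound, at least 2.10-fold in Sox7 (+/-) cells and at least 4.76-fold in Sox7 (-/-) cells. Such a bound is the mean of the bright group over a mean for the dim group. In the latter, each array enters with the higher of its own signal and the lowest signal well above background. Here and below, "at least" thus allows for the background but not for the spread between arrays. The 95% interval of the probe's fitted log2 change was -1.70 to -0.48 in Sox7 (+/-) cells. In Sox7 (-/-) cells it was -3.03 to -1.81. Both intervals include falls smaller than the bound.

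Tet3, the Tet enzyme best known from the oocyte and the zygote, was dim throughout. The 1 probe that could be tested (position 3494, chr6:83319720-83319779, minus strand) read 0.353, 0.354 and 0.392 on the Sox7 (+/-) ES arrays and 0.287, 0.376 and 0.580 on the Sox7 (+/-) XEN-like arrays. It read 0.488, 0.561 and 0.432 on the Sox7 (-/-) ES arrays and 0.505, 0.557 and 0.493 on the Sox7 (-/-) XEN-like arrays. The arrays before and after Dex overlap in both genotypes. The log2 differences of 0.12 (95% interval -0.35 to 0.59) and 0.08 (-0.39 to 0.55) had adjusted p of 0.647 and 0.768, and these intervals leave out a change of 2-fold. The 2 dimmer Tet3 probes were well above background on 4 and 1 of the 12 arrays.

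Tdg, which removes the oxidised bases, was measured slightly higher after Dex. The brightest of its 3 probes (position 1178, chr10:82110701-82110760, plus strand) read 1.15, 1.10 and 1.04 on the Sox7 (+/-) ES arrays and 1.29, 1.55 and 0.954 on the Sox7 (+/-) XEN-like arrays, and the log2 difference of 0.18 (SE 0.15) had an adjusted p of 0.315, or 0.37 with an adjusted p of 0.00817 without Sox7 (+/-) XEN-like replicate 3. It read 1.31, 1.13 and 1.15 and then 1.55, 1.60 and 1.63 in Sox7 (-/-) cells, a difference of 0.42 (SE 0.15, adjusted p = 0.0300). The adjusted p was 0.180 with the slide as a block, 0.233 with spike-in scaling and 0.118 with the deposited table. A second probe, at position 2972, rose by 0.66 (adjusted p = 6.72e-05) and 0.40 (adjusted p = 0.00179). The dimmest, at position 3093, stood at 0.54 (adjusted p = 0.0441) and 0.17 (adjusted p = 0.492). None of the Tdg probes reached 2-fold in any comparison. RefSeq lists 2 near copies, Tdg-ps and Tdg-ps2, whose RNA these probes may share, which was not tested.

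Scaling matters for the smaller responses. Set against 7 spike-in controls instead of the 75th percentile, the median of all tested probes in Sox7 (+/-) cells moved from 0.16 to -0.34, and the shares called higher and lower from 11% and 14% to 4.82% and 21.3%. Under that scaling 5 of the 9 genes were called lower in Sox7 (+/-) cells, Uhrf1 at -1.34 and Dnmt3b at -1.39 being added, Dnmt1 was at -0.51 (adjusted p = 0.00720), Dnmt3a moved from -0.48 to -0.97, and Tet3 and Tdg turned below 0, at -0.37 and -0.31, without passing the test. Dnmt3l, Tet1 and Tet2 were called lower in both genotypes under each of the 26 alternatives. For the Sox7 (-/-) response, which spans both slides, the values within the slide that holds both states were -1.31 for Uhrf1, -1.37 for Dnmt3b, -2.51 for Dnmt3l, -2.62 for Tet1 and -2.78 for Tet2, all with 1 XEN-like array.

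In XEN-like cells, none of the 9 genes differed between the genotypes by 2-fold, but 5 differed by less with an adjusted p under 0.05, and not in one direction. Dnmt3l, Tet2 and Dnmt3a were higher and Tet1 and Dnmt3b lower in Sox7 (-/-) cells. The called share of all tested probes was 3.85% higher and 3.65% lower (7.5% in all), and 34.5% of probes had an adjusted p under 0.05 at any size, so 5 of 9 genes is to be read against that share. The groups did not overlap for 6 of 9 genes, and for 46.2% of all probes. Dnmt3l was higher by 0.51 on the log2 scale (SE 0.07, adjusted p = 0.000416), its Sox7 (-/-) arrays lying at 12.2 to 13.2 and its Sox7 (+/-) arrays at 8.68 to 9.53. Tet2 was higher by 0.55 (SE 0.09, adjusted p = 0.00127) and Tet1 lower by 0.82 (SE 0.14, adjusted p = 0.00164), in each case without overlap. Dnmt3b was lower by 0.74 (SE 0.11, adjusted p = 0.000910), and its other probes were lower by 0.50 and 0.56. Dnmt3a was higher by 0.56 (SE 0.19, adjusted p = 0.0448), and by 0.28 without Sox7 (+/-) XEN-like replicate 3. With the slide as a block Dnmt3a had an adjusted p of 0.0643. Scaling moved these values too. With the deposited table Dnmt3b stood at -0.28 (adjusted p = 0.197) and Tet1 at -0.33 (adjusted p = 0.121), both past the threshold no longer, and Dnmt3l at 0.96. With spike-in scaling Dnmt3b stood at -0.49, Tet1 at -0.57 and Dnmt3l at 0.76, each with an adjusted p under 0.05. Tet3 stood at 0.38 (adjusted p = 0.185), and at 0.66 (adjusted p = 0.00590) without that array. Between the arrays of 1 slide the differences were 0.49 for Dnmt3l, 0.52 for Tet2, -0.82 for Tet1, -0.77 for Dnmt3b and 0.63 for Dnmt3a. The dim Tet2 probe at position 668 stood at -0.92, but it was not well above background in either group. The summed signal of 6 trophoblast genes was 0.745 to 0.920 in Sox7 (+/-) and 2.84 to 3.06 in Sox7 (-/-) XEN-like cells, and that of 5 genes of the 2-cell-like state 0.760 to 1.28 and 1.59 to 1.82, and their part in these differences was not tested.

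In ES cells without Dex, Tet1 was lower and Tet2 higher in Sox7 (-/-) cells, the same directions as after Dex. Tet1 differed by -0.80 on the log2 scale (SE 0.14, adjusted p = 0.00125), with 14.5 to 15.7 on the Sox7 (+/-) arrays and 7.24 to 10.1 on the Sox7 (-/-) arrays. Its other probes differed by -1.09, which was called, and by -0.71. Tet2 differed by 0.98 (SE 0.09, adjusted p = 2.29e-05), with 6.21 to 6.51 against 11.6 to 14.0, and the probe at position 8857 was called at 1.16. By the brightest probes 0 of 9 genes were called, where 1.94% of all tested probes were called higher and 6.67% lower (8.61% in all). Tet2 lay so near 2-fold that it was called without Sox7 (+/-) ES replicate 1 (1.004), without Sox7 (-/-) ES replicate 1 (1.04) or without Sox7 (-/-) ES replicate 2 (1.005).

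Dnmt1 and the brighter probe of Uhrf1 also read higher in Sox7 (-/-) ES cells under percentile scaling. Uhrf1 was higher by 0.57 (SE 0.09, adjusted p = 0.000703) by its brighter probe, and its dimmer probe showed 0.00 (adjusted p = 0.978). Dnmt1 was higher by 0.42 (SE 0.09, adjusted p = 0.00500) and Dnmt3l by 0.27 (SE 0.07, adjusted p = 0.0100). In all, 5 of the 9 genes had an adjusted p under 0.05, as did 45.1% of all tested probes, and the groups did not overlap for 8 of 9 genes, as for 65.2% of all probes. In this comparison each genotype lies on a slide of its own. With the slide in the fit, which then rests on the XEN-like arrays to separate it, Tet2 stood at 0.87 (adjusted p = 0.0102) and Tet1 at -0.78 (adjusted p = 0.0872). Uhrf1 stood at 0.58 (adjusted p = 0.0574), Dnmt1 at 0.14 (adjusted p = 0.565) and Dnmt3l at 0.20 (adjusted p = 0.345). With spike-in scaling the adjusted p was 0.00985 for Uhrf1, 0.167 for Dnmt1 and 0.606 for Dnmt3l. With the deposited table it was 0.0246, 0.0630 and 0.232. The median of 17 tested genes of DNA replication and cycling was 0.35 in this comparison under percentile scaling.

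**Figure D3:**
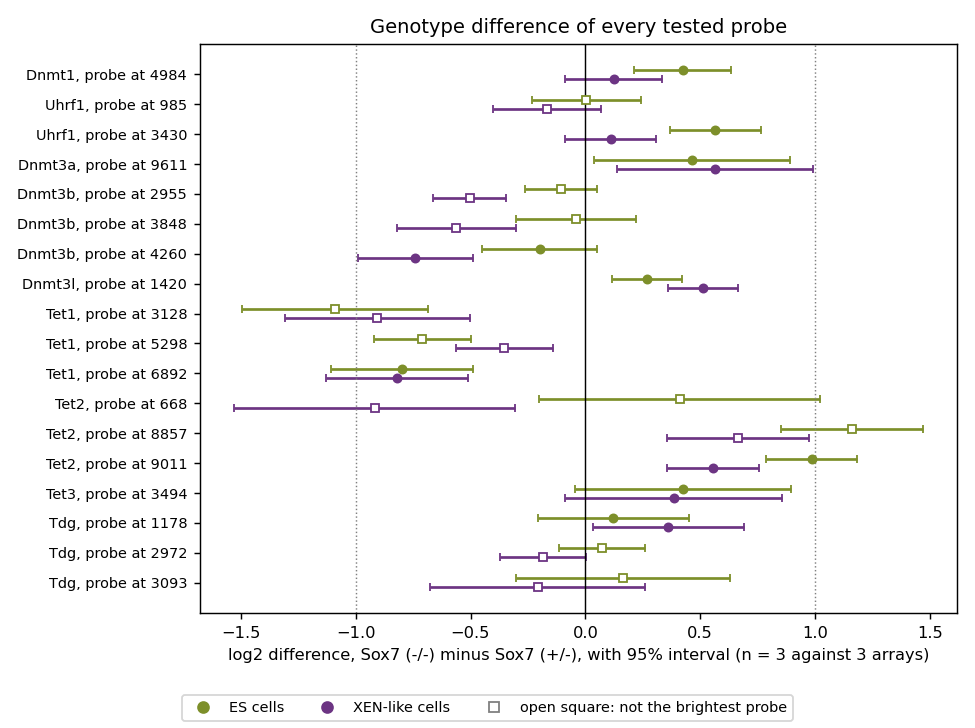
Log2 difference between Sox7 (-/-) and Sox7 (+/-) cells for the 18 tested probes, labelled by gene and position in the transcript, in ES cells (green) and XEN-like cells (purple), with 95% intervals from the fit. Filled circles are the brightest probe of a gene and dotted lines mark 2-fold. All 3 Tet1 probes lie below 0 in both states, and the Tet2 probes at 8857 and 9011 lie above 0 in both, while the dim Tet2 probe at 668 has opposite signs.

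Other cell states differed between the ES groups as well. The summed signal of 5 genes of the 2-cell-like state, Zscan4c among them, was 73.9 to 79.5 on the Sox7 (+/-) ES arrays and 2.88 to 3.67 on the Sox7 (-/-) ES arrays, with 5 of 5 and 3 of 5 genes well above background. That of 6 trophoblast genes was 7.36 to 7.57 and 3.80 to 3.86, with Elf5 well above background on no array. That of 6 primed epiblast and neural genes was 26.4 to 28.2 and 14.2 to 15.5, with Pax6 well above background on no array. That of 8 ES cell genes was 780.0 to 796.5 and 1052 to 1173. The part of these differences in the values of Tet1, Tet2, Uhrf1 and Dnmt1 was not tested.

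The Dex responses of the genotypes differed for 3 of the 9 genes at an adjusted p under 0.05, all falling further in Sox7 (-/-) cells, and for none by 2-fold at the brightest probe. Of all tested probes, 27.2% had an adjusted p under 0.05 here (14.9% lower and 12.3% higher), and 6.62% and 3.17% were called higher and lower (9.79% in all). The differences between single XEN-like and ES arrays did not overlap between the genotypes for 3 of 9 genes, and for 32.2% of all probes. Uhrf1 differed by -0.46 (SE 0.13, adjusted p = 0.0230), Dnmt3b by -0.54 (SE 0.16, adjusted p = 0.0305) and Tet2 by -0.43 (SE 0.13, adjusted p = 0.0301). These differences depended on the scaling: with spike-in controls they were -0.05 (adjusted p = 0.816), -0.14 (adjusted p = 0.592) and -0.03 (adjusted p = 0.947). That scaling moves every probe of an array alike, and the median of all tested probes went from -0.09 to 0.31. Relative to that median the differences were -0.37, -0.45 and -0.34, which this scaling cannot change. With the slide in the fit the adjusted p were 0.0855, 0.143 and 0.160. For Tet1 the difference was -0.02 (95% interval -0.46 to 0.41), for Dnmt3l 0.24 (0.03 to 0.46, adjusted p = 0.0896, and 0.0453 with spike-in scaling) and for Dnmt1 -0.30 (-0.60 to 0.00, adjusted p = 0.126), so for these the genotypes are shown neither to respond alike nor to differ.

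Among the genes that guide or shield methylation, every call was a fall. Of 11 such genes, 4 were called lower and 0 higher in Sox7 (+/-) cells (median -0.68), where 14% of all tested probes were called lower and 11% higher. In Sox7 (-/-) cells 6 were called lower and 0 higher (median -1.34), against 14.2% and 14.6%. Prdm14, which represses the de novo enzymes in naive ES cells, fell at least 36.7-fold and at least 113-fold, to signals not well above background. Dppa3, which protects DNA from Tet3 oxidation in the zygote, fell at least 13.6-fold and at least 6.22-fold. Neither gene was well above background on any XEN-like array, so both were tested through ES arrays alone and a fall was the likely call. Zfp57, the zinc finger protein that keeps imprints methylated, fell, with log2 changes of -2.41 and -4.33, a difference between the genotypes of -1.91 (adjusted p = 1.44e-05). Its partner Trim28 fell too (-1.28 and -1.46). Hells and Cdca7, a chromatin remodeller and its activator, fell by 1.34 and 1.41 in Sox7 (-/-) cells, and stood at -0.98 and -0.56 in Sox7 (+/-) cells without being called.

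The readers of methylated CG had medians above 0 under percentile scaling. The median log2 change of 8 readers was 0.40 in Sox7 (+/-) cells and 0.44 in Sox7 (-/-) cells. Zbtb4, a zinc finger protein that binds methylated CG, rose by 1.33 and 2.60. Mbd2, a methyl-CG-binding repressor, rose by 1.38 in Sox7 (-/-) cells and stood at 0.79 in Sox7 (+/-) cells without being called. With spike-in scaling the median in Sox7 (+/-) cells turned to -0.09, and in Sox7 (-/-) cells it was 0.35. The median of all tested probes moved with it, from 0.16 to -0.34 and from 0.07 to -0.02. The place of the readers relative to that median is not changed by this scaling.

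Genes that act beside or after the Tet enzymes gave mixed results. Their counts are to be read against all tested probes, of which 14% were called lower and 11% higher in Sox7 (+/-) cells, and 14.2% and 14.6% in Sox7 (-/-) cells. Of 9 base excision repair genes, 3 were called lower and 0 higher in both genotypes: Parp1, a sensor of strand breaks, by 1.38 and 1.56, the glycosylase Neil2 by 1.37 and 1.35, and Neil3 at least 2.01-fold and at least 8.31-fold, to signals not well above background. Of 9 tested Tet partners and deaminases, of 11 listed, 1 was called higher and 3 lower in Sox7 (+/-) cells and 1 each in Sox7 (-/-) cells. Gadd45g, a stress-response gene linked to demethylation, rose by 1.87 and 2.91, and Apobec1, a cytidine deaminase, fell at least 16.9-fold and at least 20.04-fold. Neil3 and Apobec1 were also tested through ES arrays alone. Of 11 genes of methyl group supply, 6 were called lower in Sox7 (-/-) cells and 1 in Sox7 (+/-) cells. The test of the difference in response called 3 of the 11 lower and 1 higher, where 3.17% and 6.62% of all tested probes were so called. With spike-in scaling it called 1 lower and 1 higher, against 1.33% and 11.7%. Tdh, a threonine dehydrogenase of mouse ES cells, fell in both (-3.70 and -2.66). Mat2a, which makes S-adenosylmethionine, fell by 1.56 in Sox7 (-/-) cells and stood at -0.33 in Sox7 (+/-) cells, a difference of -1.23 (adjusted p = 0.000323). With spike-in scaling 4 of the 11 were called lower in Sox7 (+/-) cells and 6 in Sox7 (-/-) cells, against 21.3% and 15.4% of all tested probes.

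Genes of DNA replication and cycling, read beside Dnmt1 and Uhrf1, changed little under percentile scaling. Of 17 tested genes 1 was called lower in each genotype, where 14% and 14.2% of all tested probes were. It was Mcm5, a subunit of the replicative helicase, at -1.01 and -1.26. The medians were -0.23 and -0.37. With spike-in scaling 5 and 3 of 17 were called lower, against 21.3% and 15.4% of all tested probes. Uhrf1 thus fell more than the median of this list, while Dnmt1 did not in either genotype.

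Among germline genes known to be held silent by promoter methylation, those that could be tested gave no call upward with Dex. Of 9 listed genes 6 could be tested, and the rest were not well above background on all 3 arrays of any group. In Sox7 (+/-) cells 4 were called lower and 0 higher, where 14% of all tested probes were called lower and 11% higher. In Sox7 (-/-) cells 3 were called lower and 0 higher, against 14.2% and 14.6%. Mael, of the piRNA pathway, fell at least 42.2-fold and by 4.19 on the log2 scale, and Sycp3, of the meiotic chromosome axis, by 2.96 and 1.74. The RNA-binding gene Dazl fell at least 2.64-fold and at least 9.33-fold. Dazl was not well above background on any XEN-like array. It was tested through ES arrays alone, so a fall was the likely call. The RNA helicase gene Ddx4 fell by 1.66 in Sox7 (+/-) cells and stood at -0.21 in Sox7 (-/-) cells. In XEN-like cells Mael (at least 2.92-fold), Sycp3 (by 1.49) and Ddx4 (by 1.198) were higher in Sox7 (-/-) cells. Elf5, a trophoblast gene closed by methylation in ES cells, was not well above background on any array.

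**Figure D4:**
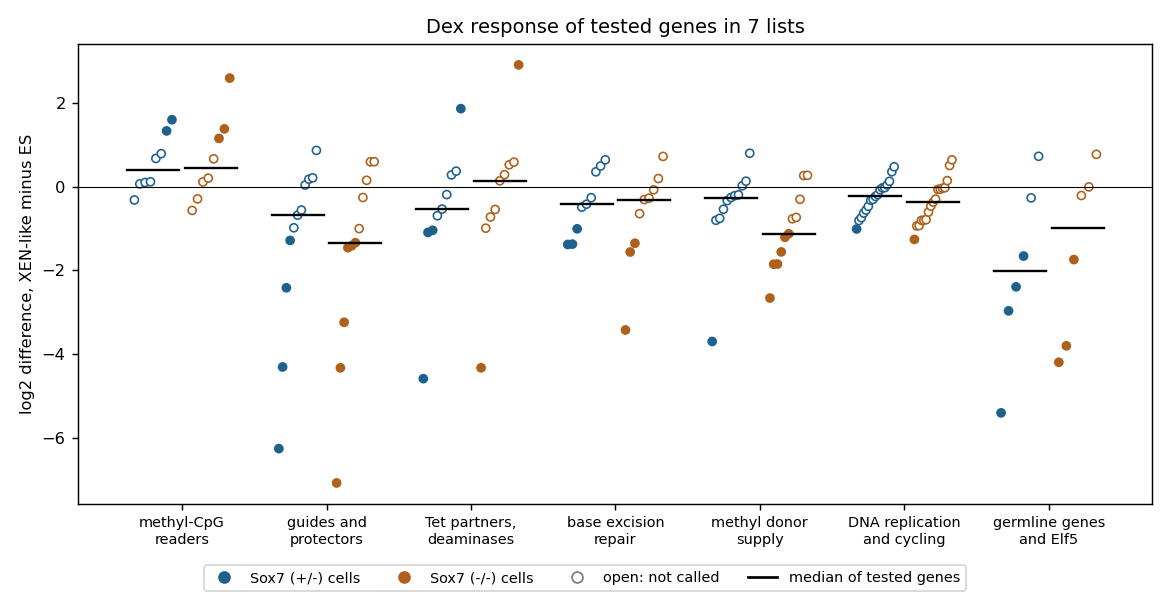
Log2 difference between XEN-like and ES cells of the tested genes of 7 lists in Sox7 (+/-) cells (blue) and Sox7 (-/-) cells (orange). Each point is the brightest probe of a gene, filled when called, and black bars are medians. The readers sit above 0 at medians of 0.40 and 0.44 and the guides and protectors below 0 at -0.68 and -1.34. For genes not well above background in one group the fitted value depends on the background and is not a bound.

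The genes nearest to each enzyme in the shape of their 12-array profile were found by the root mean square difference of centred log2 values over 19474 probes. Lig1, the DNA ligase of the replication fork, lay 0.07 from Dnmt1, next to Gm5963 (0.07), while Dnmt1 itself had an SD of 0.21 over the arrays. The histone chaperone gene Nap1l1 (0.07) and Esco2, a cohesin acetyltransferase gene (0.07), were nearest to Uhrf1, with an SD of 0.61. Pmel and Abcc4 (0.13 each) were nearest to Dnmt3l, Ddx21 (0.13) and 2900001G08Rik (0.14) to Dnmt3b, and Xpc (0.09) and Acvr1b (0.10) to Dnmt3a. For Tet1 they were 2410087M07Rik (0.22) and Gng8 (0.24), and for Tet2 2610305D13Rik (0.16) and Acss1 (0.16). For Tet3 they were Stra13 (0.12) and 1500011B03Rik (0.14), and for Tdg Arl5a (0.08) and Gcgr (0.09). These distances describe the arrays at hand, which share clones and slides.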

How the data were processed

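RNA of the 4 groups was hybridised by the authors to 12 one-colour Agilent SurePrint G3 mouse arrays. The deposited intensity values are the output of Agilent Feature Extraction (10.7.3.1 per the file headers), in which the processed signal is background-subtracted but not scaled between arrays. A deposited table of intensity values lay within 0.498% of the mean spot signal of each array, so it is neither background-subtracted nor scaled, and served as an alternative. Probe positions are on mm9 per the file headers, and exon and UTR annotation of that build was not used here. The processed intensity values were expressed as log2 relative to each array's 75th percentile, spots of a probe were averaged, and outlier-flagged spots were left out (no spot of the 9 genes was flagged). The 25950 of 55681 probes that cleared background throughout some group were entered in 1 linear model (limma 3.58.1, R 4.3.3) that estimated each group's mean, from which 5 contrasts were taken. The script was tested on simulated data. A gene was read by its brightest tested probe, and the Dex response of every tested probe of the 9 genes is given. Of other genes, those named are the called genes with the largest changes of each list (at most 2 each way in a comparison), or any gene of a list of 11 or fewer, and the 2 nearest profiles per gene. The 9 genes and the lists were chosen with earlier results of these data known. The result of 1 listed gene is not reported here. Precision is limited by having 3 arrays in a group. The alternatives were 3 other scalings, another background correction, the deposited table, 3 other sets of probes, an intensity trend, the compared arrays alone, the replicate number or slide as a block, leaving out each array, the mean of a gene's probes and, chosen after seeing the data, keeping flagged spots.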

Additional observations from a re-analysis of the deposited data

Results flagged for a closer look

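The Dex response differed between the genotypes, by the test of the difference itself (limma, adjusted p under 0.05), at 6 of the 18 tested probes. The same was so for 27.2% of all tested probes (14.9% lower and 12.3% higher), so the count is to be read against that share. The 6 probes belong to 3 of the genes, and each of the 6 fell further in Sox7 (-/-) cells. The brighter Uhrf1 probe, at position 3430, differed by -0.46 on the log2 scale (adjusted p = 0.0230), and its other probe, at 985, by -0.17 (adjusted p = 0.433). All 3 Dnmt3b probes were among the 6, at position 2955 with -0.40 (adjusted p = 0.0152), at 3848 with -0.52 (adjusted p = 0.0401) and at 4260 with -0.54 (adjusted p = 0.0305). The Tet2 probe at position 9011 differed by -0.43 (adjusted p = 0.0301) and the one at 668 by -1.33 (adjusted p = 0.0294), while the one at 8857, at -0.50, missed the threshold (adjusted p = 0.0894). The Tet2 probe at 668 was not well above background on any XEN-like array, so the size of its difference was not measured. For the brightest probes of Uhrf1, Dnmt3b and Tet2 the adjusted p was 0.816, 0.592 and 0.947 with spike-in scaling. A fit that blocked on the slide gave 0.0855, 0.143 and 0.160.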

How the results depend on the processing

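Of 1161 values of the 9 genes under 26 alternatives, 1118 kept their direction and stayed called or not called. Of the rest, 12 came to be called, 31 turned direction and 0 of the called values were lost. This tally does not see an adjusted p that crosses 0.05 in a change under 2-fold. For the difference in Dex response, the adjusted p stayed under 0.05 in 13 of 25 alternatives for Dnmt3b and for Tet2, and in 19 for Uhrf1. For Dnmt3a between genotypes in XEN-like cells it did so in 11 of 26. In Sox7 (+/-) cells 5 of the 9 genes, and not 3, were called lower with quantile normalization, spike-in scaling or the deposited table, and 3 to 4 when single arrays were left out. In ES cells the genes called higher in Sox7 (-/-) cells numbered 0 to 1 when single arrays were left out, the 1 being Tet2. Values that turned direction were small in the main scaling and not called. For the difference in Dex response, Tet1 turned to 0.0892 with normexp, 0.12 with quantile normalization, 0.38 with spike-in scaling, 0.43 with the deposited table and 0.17 with the mean of its probes (-0.15 to 0.12 leaving out arrays). Dnmt1 turned to 0.10 with spike-in scaling and 0.10 with the table, Tet3 to 0.36 and 0.28 (-0.28 to 0.23 leaving out arrays), Dnmt3a to -0.0343 with the slide as a block (-0.18 to 0.25 leaving out arrays) and Tdg to -0.13 with the mean of its probes. For the Dex response in Sox7 (+/-) cells, Tet3 turned to -0.37 with spike-in scaling and -0.25 with the table (-0.16 to 0.35 leaving out arrays), Tdg to -0.31 and -0.27, and Dnmt1 lay between -0.0493 and 0.0466 leaving out arrays. In Sox7 (-/-) cells Tet3 turned to -0.0504 with scaling by the median of bright probes and -0.0137 with spike-in scaling (-0.0171 to 0.173 leaving out arrays). Between genotypes, Tdg turned to -0.0342 in ES cells with spike-in scaling, and with the mean of their probes Uhrf1 and Tdg turned to -0.0281 and -0.0107 in XEN-like cells.

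Spike-in scaling, which rests on 7 controls, and the deposited table moved the median of all probes in the difference in Dex response from -0.09 to 0.31 and 0.24, and in XEN-like cells from 0.00 to 0.25 and 0.34. They moved the share of calls that were higher from 44.1% to 18.5% and 19.6% in the Sox7 (+/-) Dex response, from 67.6% to 89.8% and 89.5% in the difference in response, and from 51.4% to 76.6% and 89.9% in XEN-like cells. The cause was not tested. With the replicate number as a block, 3 and 5 genes were called lower with Dex, as without it. Arrays of the same number correlated at -0.05 to 0.13 in their deviations from group means over 18 pairs, against -0.14 to 0.10 for other pairs, so they were not treated as pairs. The dimmer Tet3 probes were not tested. The falls of the Tet2 probe at 668 are given as bounds, though its calls are among those counted.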
